A study of Homo sapiens with 47 samples.

Results

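The step examined here is the passage from 36 h of differentiation to P1, the cultures harvested after the first replating. Its members are the 3 whole-culture libraries labelled 36h and the 3 labelled P1, 6 of the 47 libraries of the series, chosen by their labels and compared within each replicate number (r1, r2, r3), taken here to stand for 1 differentiation followed through time. RNA came from WA09 (H9), an established human embryonic stem cell line, and gene expression was measured by poly(A) RNA sequencing. Undifferentiated WA09 cells (t0) were kept in mTESR1 on Matrigel. For 36 h they received N2B27 medium lacking vitamin A with CHIR-99021, which activates WNT signalling by inhibiting GSK3, rhFGF2, AGN193109, an antagonist of retinoic acid receptors, and Y-27632, a ROCK inhibitor. At 36 h the cells were detached with TrypLE and replated in the same medium and factors, and P1 was collected at the next passage. P2, the passage after, and t0 are given as neighbours in time. All these groups are of a single line. Passages were 3 to 4 days apart by the labels, and the day of each P1 harvest is not given in the sources used here. Time in culture, dissociation and replating therefore cannot be told apart.

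Neuromesodermal progenitors are bipotent cells of the caudal embryo that give rise to spinal cord and paraxial mesoderm, and they are known for co-expressing TBXT and SOX2 under WNT and FGF signals. When such cells leave pluripotency, the POU5F1 and NANOG network is shut down, and cells that turn to mesoderm express TBX6 and later somite genes, whereas cells that turn to neural tissue keep SOX2 and later express SOX1 and PAX6. HOX genes are switched on in the order of their position in the clusters and mark how caudal the cells are.

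Expected counts summed to 34469125, 39908157 and 54361945 in 36 h r1, r2 and r3 and to 21802304, 36685917 and 58023045 in P1 r1, r2 and r3. P1 r1 was the shallowest of these 6 libraries and had 15610 genes with at least 10 counts, against 16873 in P1 r2 and 18256 in P1 r3. Values below are normalized counts, that is, rounded expected counts divided by a size factor for each library, listed in the order r1, r2, r3 unless said otherwise.

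Differentiation r1 stood apart from the others at P1. In the root-mean-square difference of log2 normalized counts over the 17426 genes tested, P1 r2 and P1 r3 were 0.629 apart, while P1 r1 lay 1.25 from P1 r2 and 1.41 from P1 r3. P1 r1 was nearer to 36 h r2, at 0.888, than to either of its own replicates, and P1 r2 was nearly as close to P2 r1, at 0.635, as to P1 r3. On the first principal component of the 12 libraries from t0 to P2, which held 57.5% of the variance, the 36 h libraries were at -65.1, -47.5 and -2.2 and the P1 libraries at -16.3, 88.1 and 92.7. P1 r1 thus fell among the 36 h libraries on this component, while P2 r1, at 71.9, lay near P1 r2 and P1 r3. Gene values below are therefore listed for each differentiation, and beside the members of a list that DESeq2 called stand those that edgeR called without r1. That fit is shown because r1 was seen to stand apart in these same data. Its calls are thus no independent support for those of DESeq2. Without r2 or without r3, edgeR called 0 list members.

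**Figure D1:**
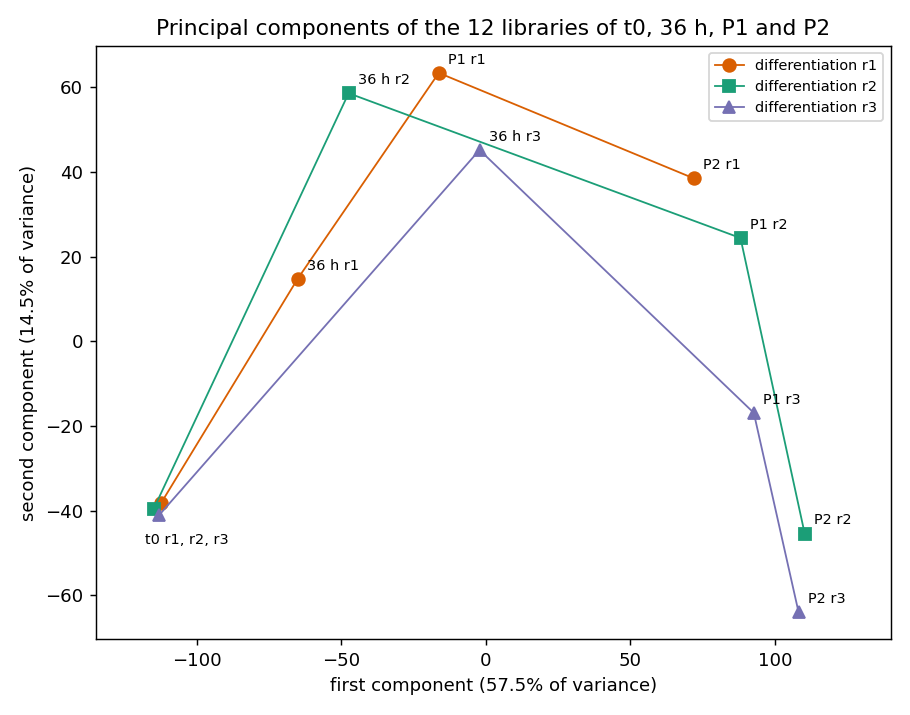
Principal components of log2 normalized counts in the libraries of t0, 36 h, P1 and P2, with each differentiation joined by a line and the share of variance on each axis. P1 r1 is at -16.3 on the first component, within the range of the 36 h libraries, -65.1 to -2.2, while the other P1 libraries are at 88.1 and 92.7.

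Across all genes, the paired test of P1 against 36 h called none. A gene was called at a Benjamini-Hochberg adjusted p under 0.05 and a fold change of at least 2. The edgeR quasi-likelihood test blocked on differentiation called 0 of 17426 genes higher (0%) and 0 lower (0%), with 2521 genes at an unadjusted p under 0.05. The fit without the block also called 0, with 2597 genes at an unadjusted p under 0.05, and so did limma-voom with the block, with 2848. DESeq2 with the same block called 328 higher (1.88%) and 817 lower (4.69%). Without differentiation r1, edgeR called 424 of 18128 genes higher (2.34%) and 602 lower (3.32%), whereas it called 0 without r2 and 0 without r3. With all 35 whole-culture libraries setting the spread, edgeR called 413 of 21750 genes higher (1.90%) and 681 lower (3.13%). As a description with no test, 157 genes (0.901%) were at least 2-fold higher and 670 (3.84%) at least 2-fold lower in each of the 3 differentiations, and these counts were 154 and 667 among genes with more than 3 counts in at least 1 library of each pair. The median log2 fold change over all genes tested was 0.01. Because the planned test called nothing, genes are described below as higher or lower, and adjusted p-values are given with their range over the alternatives. Whether the libraries of 36 h and P1 overlap is given as a description of single genes. The share of all genes tested without overlap was not counted, so lack of overlap is no evidence of an unusual change.

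Many pluripotency genes were lower at P1, more so in r2 and r3 than in r1, and *NANOG* was near absence in P1 r2 and P1 r3. Of 25 genes in the list, 23 were tested, DESeq2 called 12 lower and 0 higher, and edgeR without r1 also called 12 lower and 0 higher. The list's median log2 fold change was -1.42, and within r1, r2 and r3 its median log2 ratios were -0.60, -2.25 and -1.29. In these whole cultures, fewer cells of a type and less RNA per cell cannot be told apart. *POU5F1* (chr6:31164337-31180731 on GRCh38, GENCODE 29), the POU factor at the centre of the pluripotency network, had 45308, 36118 and 19831 counts at 36 h and 28134, 614 and 163 at P1. P1 r1 lay within the 36 h range, and the other P1 libraries far below every 36 h library. The log2 fold change was -4.90 ± 1.70 (standard error, edgeR adjusted p = 0.32, from 0.0079 to 0.96 over 11 alternatives). *NANOG* (chr12:7787794-7799141), a homeobox partner of POU5F1, had 3760, 1868 and 82.7 counts at 36 h and 1106, 3.56 and 0 at P1. It was lower at P1 in each differentiation, although P1 r1 exceeded 36 h r3. Its log2 fold change was -5.06 ± 1.72 (standard error, edgeR adjusted p = 0.31, from 0.0032 to 0.74 over 10 alternatives). Without r1, the edgeR adjusted p was 0.018 for *POU5F1* and for *NANOG*. The sizes depended on the fit, at -6.38 and -9.00 without r1 and -1.76 and -2.34 without the block. Without r2 they were -3.75 and -3.14, and without r3 -3.25 and -4.46. Reads of both genes can be shared with near-identical pseudogene copies, so their counts carry that uncertainty.

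*PRDM14*, a repressor that protects the pluripotent state, went from 654, 174 and 100 counts at 36 h to 198, 3.56 and 0.757 at P1. *DNMT3B*, the de novo DNA methyltransferase of the epiblast, had 24539, 30697 and 14277 counts at 36 h and 16147, 6448 and 5844 at P1, and *DPPA4*, a chromatin protein of pluripotent cells, had 25053, 17823 and 7768 at 36 h and 14306, 3928 and 4294 at P1. For these 3 genes each P1 library was below the 36 h library of its own differentiation, and P1 r1 overlapped the 36 h range. *USP44*, a deubiquitinase, was lower in each differentiation, from 5584, 2973 and 2019 to 2406, 445 and 626 counts, a log2 fold change of -1.84 ± 0.34 (standard error, edgeR adjusted p = 0.20, from 1.5e-05 to 0.56 over 11 alternatives). *EPHA1*, an ephrin receptor, had 2921, 2934 and 934 counts at 36 h and 1128, 83.1 and 51.5 at P1, and *ESRG*, a noncoding RNA of pluripotent cells, 38815, 19272 and 5610 at 36 h and 17911, 389 and 105 at P1. *SOX2*, shared by pluripotent, neural and neuromesodermal cells, was already uneven at 36 h, with 12344, 1381 and 255 counts, and had 4953, 172 and 187 at P1. Its P1 values in r2 and r3 lay below every 36 h library. Some members did not follow. *LIN28B* and *SALL4*, which many embryonic progenitors keep, had 8645, 11501 and 13587 and 11059, 9940 and 11063 counts at 36 h, against 8846, 18000 and 16588 and 11303, 15228 and 12997 at P1, so that none of their P1 libraries was below its own 36 h library. *LIN28A* was the most abundant of the list at P1, with 1415, 491 and 450 TPM, and the summed TPM of the list was 5484, 4094 and 2544 at 36 h and 4532, 1246 and 1105 at P1.

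Genes of the Nodal pathway, which maintains human pluripotency and induces mesendoderm, were lower as well. Of 10 genes, 8 were tested, DESeq2 called 4 lower and 0 higher, edgeR without r1 called 3 lower and 0 higher, 4 were at least 2-fold lower in each differentiation, and the median log2 fold change was -2.22. The ligand *NODAL* had 564, 2678 and 24.6 counts at 36 h and 9.91, 10.7 and 3.78 at P1, below the 36 h range in every library. Its coreceptor *TDGF1* had 5150, 4813 and 2243 counts at 36 h and 535, 15.4 and 5.3 at P1, again with no overlap, and the log2 fold change was -6.52 ± 1.42 (standard error, edgeR adjusted p = 0.22, from 6.5e-06 to 0.61 over 10 alternatives). The pseudogene *TDGF1P3*, which resembles *TDGF1* and may share its reads, had 350, 339 and 157 counts at 36 h and 27.7, 1.19 and 1.51 at P1. *FOXH1*, the transcription factor that carries Nodal signals with SMAD proteins, had 3804, 5248 and 8191 counts at 36 h and 1243, 480 and 347 at P1, and *GDF3*, a Nodal-related ligand, 939, 207 and 11.1 at 36 h and 45.6, 0 and 2.27 at P1. The inhibitor *LEFTY2*, with 33.8, 16.7 and 0 counts at 36 h and 3.96, 2.37 and 5.3 at P1, was not tested because of its low counts. *LEFTY1*, at or under 3 counts in every P1 library, was at least 13.7-fold lower on the mean, from 127, 32.2 and 1.59 counts at 36 h. That bound rests mainly on 36 h r1, and r3, at or under 3 counts at both times, shows no difference.

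Most epithelial genes of the adhesion list were lower at P1 in each differentiation, r1 included, but *CLDN6* was not, a tight junction gene with 10240, 13592 and 8571 counts at 36 h and 12558, 3011 and 2217 at P1. *CDH1* (chr16:68737225-68835548), the cadherin of epithelial junctions, had 3625, 3306 and 1059 counts at 36 h and 147, 16.6 and 4.54 at P1. All P1 libraries lay below all 36 h libraries, r1 included, with log2 ratios of -4.62, -7.55 and -7.58. The log2 fold change was -6.45 ± 0.83 (standard error, edgeR adjusted p = 0.20, from 3.1e-23 to 0.45 over 10 alternatives), and 4 alternatives called it. *ESRP1*, the regulator of epithelial splicing, had 2686, 2789 and 726 counts at 36 h and 85.2, 19 and 9.08 at P1, a log2 fold change of -6.07 ± 0.54 (standard error, edgeR adjusted p = 0.20, from 3.6e-33 to 0.36 over 11 alternatives). *EPCAM*, an epithelial adhesion molecule, had 3186, 5804 and 1625 counts at 36 h and 1118, 89 and 50.7 at P1, and *GRHL2*, an activator of epithelial genes, 216, 224 and 77.9 at 36 h and 13.9, 0 and 1.51 at P1. None of these 3 genes had a P1 library inside its 36 h range. *CLDN7*, a relative of *CLDN6*, had 145, 150 and 44.5 counts at 36 h and 1.98, 20.2 and 11.4 at P1. *CDH2*, the cadherin of mesenchymal and neural cells, had 11530, 24041 and 30311 counts at 36 h and 17919, 18790 and 19342 at P1, which lay inside the 36 h range. Its log2 fold change of -0.10 was 0.02 without r2 and 0.16 without r3. *VIM*, the mesenchymal intermediate filament, had 26842, 27325 and 61348 counts at 36 h and 54887, 97095 and 101637 at P1, higher in each differentiation. Of the 17 genes of the adhesion and epithelial-mesenchymal list, all tested, DESeq2 called 2 higher and 6 lower, as many as edgeR without r1. The median log2 fold change was -0.10, with medians of -0.21, 0.55 and -0.96 in r1, r2 and r3.

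**Figure D2:**
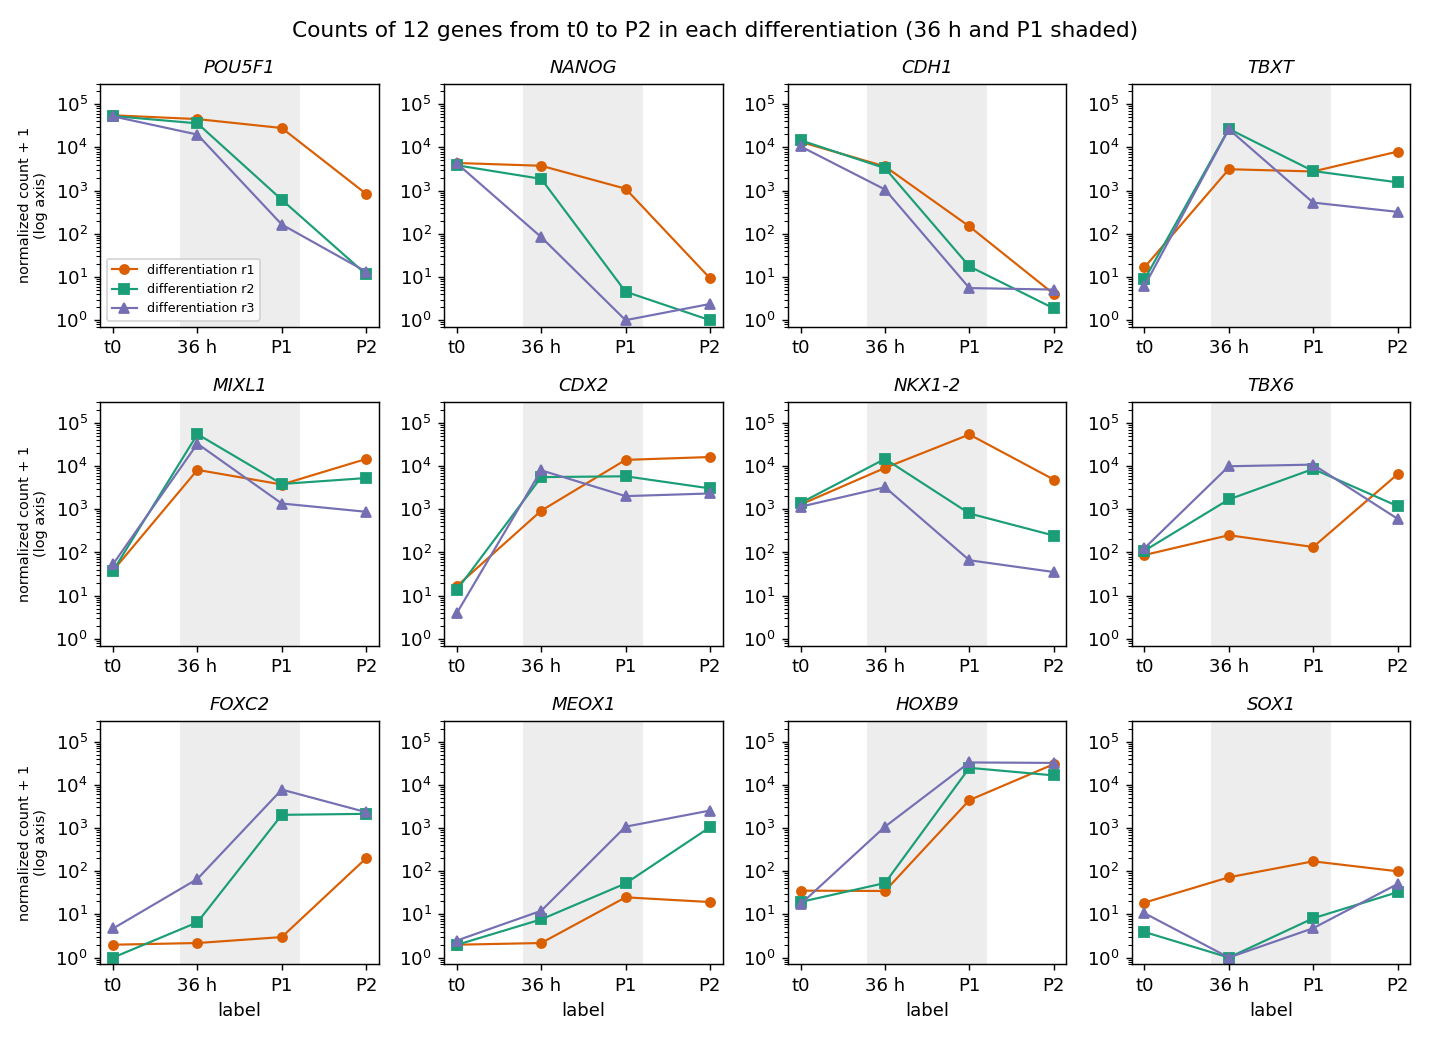
Normalized counts plus 1, on a log axis, of 12 genes at t0, 36 h, P1 and P2, with a line for each differentiation and the libraries compared here shaded. *POU5F1* and *NANOG* are far lower at P1 in r2 and r3 than in r1, while *CDH1* is lower and *HOXB9* higher in all 3 differentiations.

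Many primitive streak genes, which mark the region where mesoderm and endoderm form, were lower at P1. Of 14 genes, 11 were tested, DESeq2 called 6 lower and 0 higher, edgeR without r1 called 3 lower and 0 higher, 5 were at least 2-fold lower in each differentiation, and the median log2 fold change was -2.29. *TBXT*, the T-box factor Brachyury, had 3126, 26866 and 26404 counts at 36 h and 2775, 2837 and 527 at P1. The groups did not overlap, yet the difference lay in r2 and r3, and in r1 both values were near that of P1 r2. The log2 fold change was -3.05 ± 1.26 (standard error, edgeR adjusted p = 0.37, from 0.054 to 1 over 11 alternatives), and no alternative called it. *MIXL1*, a homeobox factor of the streak, had 8184, 54885 and 33024 counts at 36 h and 3750, 3862 and 1361 at P1, with no overlap between the groups, and a log2 fold change of -3.23 ± 0.81 (standard error, edgeR adjusted p = 0.23, from 3e-06 to 0.71 over 11 alternatives). *EOMES*, a T-box factor of early mesendoderm, had 1177, 3342 and 216 counts at 36 h and 739, 4.75 and 2.27 at P1. *GSC*, an organizer homeobox gene, had 29.2, 160 and 84.3 at 36 h and 1.98, 11.9 and 7.57 at P1, and the ligand *WNT3* 819, 2710 and 746 at 36 h and 327, 312 and 306 at P1. *EOMES* overlapped between the groups through P1 r1, while *GSC* and *WNT3* did not overlap. *MESP1*, of nascent mesoderm, had 9.34, 155 and 1333 counts at 36 h and 1.98, 19 and 395 at P1, lower in each differentiation but spread widely among them. *SP5*, a direct WNT target expressed in the streak and the tailbud, had 6438, 10273 and 9582 counts at 36 h and 8491, 8687 and 9979 at P1. Its log2 fold change was 0.10 and became -0.08 without r1. *EVX1*, a homeobox gene of the posterior streak, had 211, 6628 and 7698 counts at 36 h and 5199, 2398 and 531 at P1, higher in r1 and lower in r2 and r3. *MESP2*, of segmenting mesoderm, had 12.8, 30 and 142 counts at 36 h and 1.98, 17.8 and 1754 at P1, and *CER1*, a secreted antagonist, 10.5, 45.5 and 3.18 at 36 h and 3.96, 34.4 and 577 at P1, both higher in r3 alone.

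Promoters are shown for *MIXL1*, whose groups did not overlap, for *CDX2*, a caudal factor on which the differentiations parted, and for *HOXD8*, of the HOX genes that were higher in each differentiation. The sequences are RefSeq promoters (GRCh38.p14), 250 bases before to 50 after the start, read 5′ to 3′ on the strand of the gene, from chr1:226223414-226223713 (plus strand), chr13:27969266-27969565 (minus strand) and chr2:176129455-176129754 (plus strand). Capitals mark exact matches, on either strand, to the octamer ATTTGCAT bound by POU factors, the TCF/LEF site CTTTGATC, the CDX site TTTATNG or the T-box site TCACACCT, and no match overlapped another.
MIXL1: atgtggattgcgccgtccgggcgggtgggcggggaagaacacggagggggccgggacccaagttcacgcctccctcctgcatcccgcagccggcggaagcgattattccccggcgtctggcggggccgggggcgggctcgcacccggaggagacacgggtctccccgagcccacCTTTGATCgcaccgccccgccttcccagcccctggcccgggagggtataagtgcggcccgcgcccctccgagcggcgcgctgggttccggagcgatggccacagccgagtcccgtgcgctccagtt
CDX2: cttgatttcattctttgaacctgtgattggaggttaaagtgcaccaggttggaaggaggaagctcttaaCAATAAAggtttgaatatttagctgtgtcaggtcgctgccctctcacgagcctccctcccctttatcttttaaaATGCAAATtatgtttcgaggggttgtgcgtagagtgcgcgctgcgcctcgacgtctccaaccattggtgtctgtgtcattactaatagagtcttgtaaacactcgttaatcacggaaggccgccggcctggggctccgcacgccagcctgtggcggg
HOXD8: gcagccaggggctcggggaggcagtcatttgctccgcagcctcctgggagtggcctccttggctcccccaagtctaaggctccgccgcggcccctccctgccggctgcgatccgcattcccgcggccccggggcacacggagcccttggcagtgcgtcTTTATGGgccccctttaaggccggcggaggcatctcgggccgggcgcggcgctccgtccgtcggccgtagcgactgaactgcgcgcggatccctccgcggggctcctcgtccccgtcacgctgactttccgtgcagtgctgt
The *MIXL1* promoter held the TCF/LEF letters, found in 0.656% of 27305 promoters of the same length. The *CDX2* promoter held the octamer, found in 1.80% of all promoters, and the CDX letters, found in 10.1%. The *HOXD8* promoter held the CDX letters. Of 94 named genes, 54 were matched to a promoter, of which 1 held the octamer, 1 the TCF/LEF site, 8 the CDX site and 0 the T-box site, which 0.982% of all promoters held. *HOXC4* and *HOXC5*, both counted for the CDX site, share the same window. A match describes the letters in this window and not binding.

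Genes of the neuromesodermal list did not move as a group. All 21 were tested, DESeq2 called 1 higher and 3 lower, edgeR without r1 called 0 higher and 3 lower, and the median log2 fold change was -0.11, with medians of 0.44, 0.06 and -1.55 in r1, r2 and r3. The differentiations went apart for single genes. *NKX1-2*, a homeobox gene of the caudal lateral epiblast, had 9084, 14701 and 3246 counts at 36 h and 53977, 800 and 65.1 at P1, so it was higher in r1 and lower in r2 and r3. The log2 fold change was -3.21 with the block and 1.07 without it, and -4.85 without r1. *CDX2*, the caudal homeobox factor that acts on trunk HOX genes, had 928, 5562 and 7993 counts at 36 h and 13947, 5814 and 2017 at P1, higher in r1, alike in r2 and lower in r3. Its log2 fold change of 0.50 became -0.95 without r1. *CDX1*, a related factor, had 1594, 5038 and 7929 counts at 36 h and 1314, 5423 and 2904 at P1, with overlap. The tailbud ligand *WNT3A* had 198, 740 and 2434 counts at 36 h and 333, 803 and 37.1 at P1, and *WNT8A* 1931, 3717 and 11596 at 36 h and 497, 2893 and 1107 at P1. *FGF8*, the FGF ligand of the tailbud, had 249, 168 and 626 counts at 36 h and 39.6, 792 and 620 at P1. The groups overlapped for *WNT8A*, *WNT3A* and *FGF8*, and of these *WNT8A* alone was lower in each differentiation. *EGFLAM*, an extracellular matrix protein, was the member DESeq2 called higher, with 287, 1140 and 3666 counts at 36 h and 1340, 10295 and 9563 at P1, a log2 fold change of 2.29 ± 0.39 (standard error, edgeR adjusted p = 0.20, from 2.5e-07 to 0.50 over 11 alternatives).

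Genes of presomitic and paraxial mesoderm were mostly high at P1 r2 and P1 r3 and low at P1 r1. Of 22 genes, 17 were tested, DESeq2 called 5 higher and 0 lower, edgeR without r1 called 2 higher and 0 lower, the median log2 fold change was 1.31, and within r1, r2 and r3 the medians were -0.05, 1.78 and 1.08. *TBX6* (chr16:30085793-30091887), the T-box factor that commits progenitors to paraxial mesoderm, had 250, 1691 and 9925 counts at 36 h and 133, 8587 and 10830 at P1. It was already near its P1 level at 36 h in r3, was higher at P1 in r2, and stayed low in r1 until P2 r1, with 6465. The log2 fold change was 0.56 ± 0.68 (standard error, edgeR adjusted p = 0.74, from 0.28 to 1 over 11 alternatives), and it was -0.34 without r2. *MSGN1*, another presomitic factor, had 7, 1322 and 5428 counts at 36 h and 41.6, 2245 and 907 at P1, so r3 was lower and r1 and r2 higher. *DLL1* and *DLL3*, Notch ligands of the segmentation clock, had 382, 1346 and 9526 and 229, 2476 and 10637 counts at 36 h, against 242, 13281 and 29717 and 234, 8898 and 7683 at P1. Both were low in r1 at either time. The clock repressor *HES7* had 113, 1066 and 4793 counts at 36 h and 341, 3226 and 2976 at P1.

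Factors of the forming somite were further apart. *FOXC2* (chr16:86566829-86569728), a forkhead factor of somitic mesoderm, had 1.17, 5.55 and 65.2 counts at 36 h and 1.98, 2013 and 7743 at P1. It was almost unmeasured in r1 and over the 36 h range in r2 and r3, and its log2 fold change was 7.29 ± 0.78 (standard error, edgeR adjusted p = 0.20, from 0.0016 to 0.45 over 9 alternatives). *FOXC1*, its paralogue, had 19.8, 145 and 1776 counts at 36 h and 49.5, 7507 and 15567 at P1. *MEOX1*, a homeobox gene of somites, had 1.17, 6.66 and 11.1 counts at 36 h and 23.8, 51 and 1072 at P1, above the 36 h range in every library, with a log2 fold change of 4.87 ± 0.94 (standard error, edgeR adjusted p = 0.20, from 2.6e-06 to 0.45 over 10 alternatives). With so few counts at 36 h, *MEOX1* passed the expression filter through its P1 counts. Its call by DESeq2 and its part in the list's median are not independent of that. *PCDH8*, a protocadherin of segmenting mesoderm, had 25.7, 14.4 and 408 counts at 36 h and 145, 39.2 and 863 at P1. *ALDH1A2*, the enzyme that makes retinoic acid in somites, had 22.2, 28.9 and 1859 counts at 36 h and 13.9, 9804 and 19226 at P1, again near absence in r1. *RIPPLY1*, a late segmentation gene, was at 0, 0 and 0.795 counts at 36 h and at 0, 0 and 127 at P1, and *MEOX2* and *UNCX*, of mature somites, were at or under 3 counts before normalization in all 6 libraries. Summed TPM of the list was 58.4, 624 and 3141 at 36 h and 76.5, 2297 and 3003 at P1, and the WNT inhibitor *DKK1* had 8.09, 814 and 886 TPM at P1, the most abundant in r2 and r3, while *LFNG* was in r1, with 22.5. At P2 r1 the sum was 2090 TPM.

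Of the 17 Notch genes, 16 were tested, DESeq2 called 3 higher and 1 lower, and edgeR without r1 called 5 higher and 0 lower. The median log2 fold change was 0.85, with medians of -0.10, 1.39 and 0.94 in r1, r2 and r3. *LFNG*, the glycosyltransferase that cycles with the clock, had 336, 1080 and 3977 counts at 36 h and 1052, 3228 and 7223 at P1, higher in each differentiation (edgeR adjusted p = 0.20, from 2e-05 to 0.64 over 11 alternatives). The Notch target *HEY1* had 59.5, 56.6 and 215 counts at 36 h and 141, 142 and 435 at P1, and *MFNG*, another glycosyltransferase, 197, 32.2 and 101 at 36 h and 9.91, 8.31 and 39.4 at P1. *HEY1* was thus higher, and *MFNG* lower, in each differentiation.

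GEO labels the P1 cells as neural progenitors, and the genes of that list differed among themselves. *SOX1* and *PAX6* were near 0 in P1 r2 and P1 r3, whereas the adhesion genes *CDH2* and *NCAM1* and the ventral progenitor gene *NKX6-1* were measured there. Of 26 genes, 17 were tested, DESeq2 called 2 higher and 1 lower, and edgeR without r1 called 3 higher and 1 lower. The median log2 fold change was -0.09, with medians of 0.25, 0.08 and -0.25 in r1, r2 and r3. Summed TPM of the list was 284, 372 and 555 at 36 h and 345, 350 and 390 at P1, of which *CDH2*, which mesenchymal cells also express, made up 177, 194 and 204 at P1. *NCAM1* had 832, 311 and 815 counts at 36 h and 446, 3812 and 10776 at P1, lower in r1 and higher in r2 and r3. *NKX6-1* had 126, 213 and 430 counts at 36 h and 499, 297 and 543 at P1, higher in each differentiation. *SOX1*, the earliest definitive neural SOX gene, had 71.2, 0 and 0 counts at 36 h and 168, 7.12 and 3.78 at P1. *PAX6*, the neural tube paired-box gene, had 267, 2.22 and 3.18 counts at 36 h and 153, 0 and 8.32 at P1. Both were measured almost entirely in r1 at either time, and neither was tested. *SOX3*, a SOXB1 relative of SOX2, had 265, 212 and 56.4 counts at 36 h and 529, 51 and 9.08 at P1, higher in r1 and lower in r2 and r3. *IRX3*, of caudal neural progenitors, had 63, 37.8 and 111 counts at 36 h and 21.8, 42.7 and 53 at P1. Of the 17 members tested, 4 were higher and 3 lower by any amount in each differentiation. Over all 17426 genes tested, 2958 were higher and 3924 lower in this way, so the list was not far from that share. *FGFR2* went from 32.1, 5.98 and 2.94 TPM at 36 h to 19.4, 2.57 and 2.64 at P1. *POU3F2*, a neural POU factor, had 392, 21.1 and 34.2 counts at 36 h and 676, 357 and 552 at P1, higher in each differentiation with a log2 fold change of 3.01 ± 0.85 (standard error, edgeR adjusted p = 0.25, from 0.0003 to 0.82 over 11 alternatives). *HHIP*, an inhibitor of hedgehog ligands, had 28, 5.55 and 16.7 counts at 36 h and 73.3, 76 and 95.4 at P1, above the 36 h range in every library. *DBX2* and *NKX6-2*, spinal progenitor genes, were at or near 0. *DBX2* had 0, 0 and 0 counts at 36 h and 0, 0 and 1.51 at P1, and *NKX6-2* had 0, 2.22 and 0 and then 5.95, 0 and 0.

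Forebrain and midbrain genes were low, and those named here were highest in r1. *OTX2*, the homeobox gene of forebrain and epiblast, had 852, 54.4 and 38.2 counts at 36 h and 242, 23.7 and 18.2 at P1, and *FEZF1*, of the forebrain, 497, 53.3 and 243 at 36 h and 97.1, 14.2 and 9.84 at P1. *EN2*, of the midbrain-hindbrain border, had 35, 1.11 and 3.98 counts at 36 h and 452, 39.2 and 40.9 at P1. *OTX2* and *FEZF1* were lower, and *EN2* higher, in each differentiation. Of the 15 genes of this list 10 were tested, DESeq2 called 1 higher and 2 lower, and edgeR without r1 called 0. The median log2 fold change was 0.28, but the medians within r1, r2 and r3 were -0.19, 0.54 and -0.09, so that r2 alone was above 0. The neural crest list of 16 genes had 11 tested, with 3 called higher and 1 lower by DESeq2 and 2 higher and 0 lower by edgeR without r1. Its median was also 0.28, and the 3 differentiations had 0.99, 0.60 and -0.38. *PAX3*, of dorsal neural tube, crest and somites, had 216, 53.3 and 120 counts at 36 h and 811, 293 and 92.3 at P1, higher in r1 and r2 alone. *NGFR*, a neurotrophin receptor of crest, had 524, 240 and 104 counts at 36 h and 1637, 1599 and 3790 at P1, and *ETS1*, an ETS factor, 949, 1384 and 625 at 36 h and 113, 205 and 272 at P1. The groups did not overlap for either gene. *TFAP2A*, a defining crest and surface ectoderm factor, was near absence, with 4.67, 3.33 and 7.95 counts at 36 h and 13.9, 3.56 and 3.78 at P1. Summed TPM of the crest list was 47.2, 53 and 92.7 at 36 h and 106, 120 and 114 at P1, higher in each differentiation. *SNAI2*, the most abundant on the mean, had 2.33, 11.4 and 64.4 TPM at 36 h and 8.24, 64.1 and 33 at P1, lower in r3. *SOX9*, which led in P1 r1, had 15.6, 14.4 and 8.39 TPM at 36 h and 53.4, 5.36 and 6.78 at P1, higher in r1 alone.

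**Figure D3:**
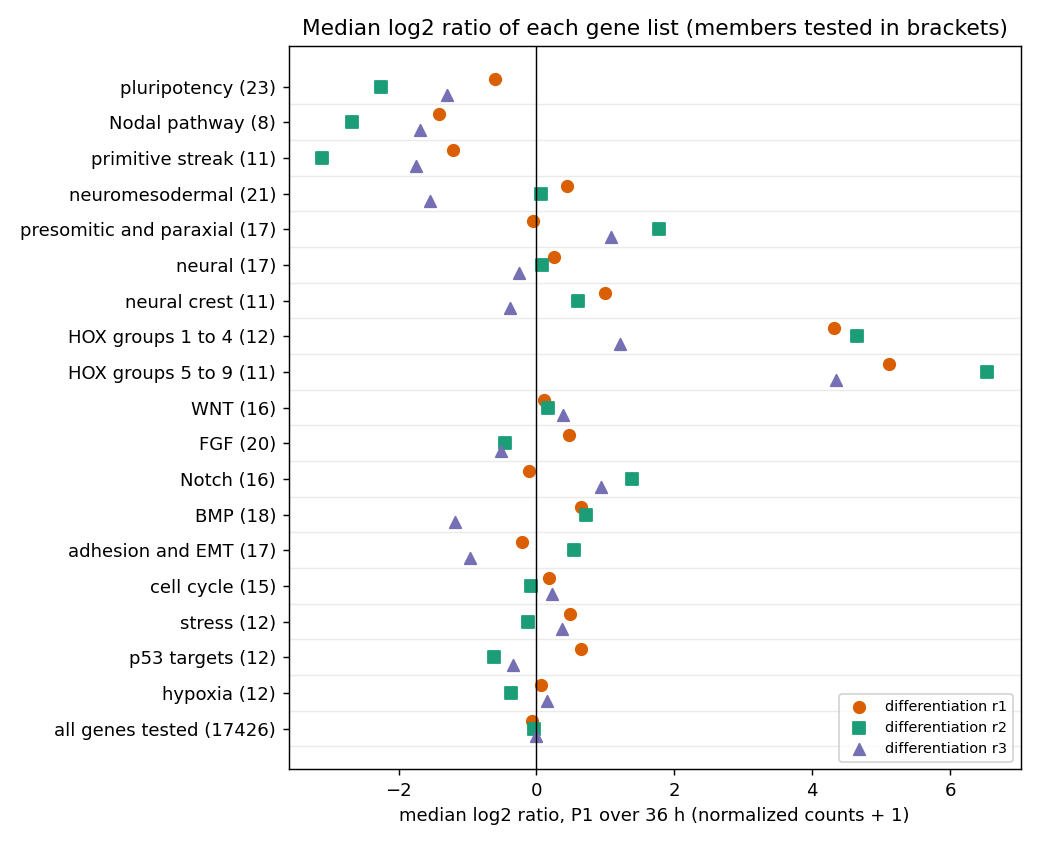
Median log2 ratio of P1 over 36 h (normalized counts plus 1) of the tested members of the gene lists shown, with a point for each differentiation and all 17426 genes tested at the bottom. Among the lists drawn, HOX groups 5 to 9 have the highest median in each differentiation, at 5.12, 6.54 and 4.34. Some of their tested members, such as *HOXC8*, passed the expression filter through P1 counts, so this rank is partly set by the filter. The presomitic and paraxial list is at -0.05 in r1 against 1.78 and 1.08 in r2 and r3.

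Over the members tested, HOX genes of paralogue groups 5 to 9 had the highest median of all lists in each differentiation, r1 included. A member near absence at 36 h, such as *HOXC8*, passed the expression filter through its P1 counts. The tested members of groups 5 to 9 were thus in part chosen by being high at P1, and neither this rank nor their calls are independent of that. For paralogue groups 1 to 4, all 12 genes were tested, DESeq2 called 9 higher and 0 lower, and the median log2 fold change was 3.74. For groups 5 to 9, 11 of 15 genes passed the filter and were tested. Of these, DESeq2 called all 11 higher, 9 were at least 2-fold higher in each differentiation, and the median log2 fold change was 5.46. Without r1, edgeR called 2 of 12 and 7 of 15 of them higher. *HOXB1* (chr17:48528526-48531001), the most 3′ gene of its cluster, had 249, 791 and 7986 counts at 36 h and 3756, 8255 and 7784 at P1. It was already at its P1 level at 36 h in r3. *HOXB4* had 3.5, 153 and 1332 counts at 36 h and 511, 2963 and 3659 at P1, higher in each differentiation. *HOXB8* (chr17:48611377-48614939), a trunk gene, had 5.83, 32.2 and 693 counts at 36 h and 1730, 3099 and 3377 at P1, above the 36 h range in every library. *HOXB9* (chr17:48621159-48626356), of the thoracic region, had 33.8, 52.2 and 1074 counts at 36 h and 4422, 24719 and 32937 at P1, also without overlap. Its log2 fold change was 6.91 ± 0.97 (standard error, edgeR adjusted p = 0.20, from 7.9e-26 to 0.36 over 11 alternatives).

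The HOXC and HOXD clusters gave a like picture from lower starting values. *HOXC8* had 2.33, 3.33 and 3.18 counts at 36 h and 87.2, 861 and 482 at P1, and *HOXD8* 0, 3.33 and 14.3 at 36 h and 7.93, 876 and 1247 at P1. For *HOXC8* all P1 libraries lay above all 36 h libraries, and for *HOXD8* P1 r1 lay within the 36 h range. Their log2 fold changes were both 7.04, with edgeR adjusted p of 0.20, which ran from 7.5e-19 to 0.45 over 10 alternatives for *HOXC8* and from 2.5e-24 to 0.36 over 8 for *HOXD8*. *HOXD4* had 4.67, 8.88 and 126 counts at 36 h and 51.5, 5040 and 7006 at P1, and *HOXC5* 0, 0 and 32.6 at 36 h and 33.7, 424 and 679 at P1. The *HOXC5* counts are those of its protein-coding gene identifier and may miss reads assigned to an overlapping transcript listed apart under the same symbol. *HOXC9* was at or under 3 counts in every 36 h library and had 9.91, 77.2 and 40.1 at P1, at least 13.8-fold higher on the mean. Genes of groups 10 to 13 were hardly measured, with summed TPM of 1.28, 1.45 and 1.61 at 36 h and 4.37, 1.41 and 0.84 at P1, and 1 of 12 was tested, which neither DESeq2 nor edgeR without r1 called. Summed TPM of groups 5 to 9 was 2.92, 4.31 and 59.4 at 36 h and 156, 623 and 786 at P1. *HOXB-AS3*, an antisense transcript of the HOXB cluster, had 14, 6.66 and 72.3 counts at 36 h and 99.1, 9983 and 8362 at P1. Since the strand setting of the counting is not stated, its reads and those of genes it overlaps cannot be told apart, and neighbouring HOX genes that share exons are uncertain in the same way.

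**Figure D4:**
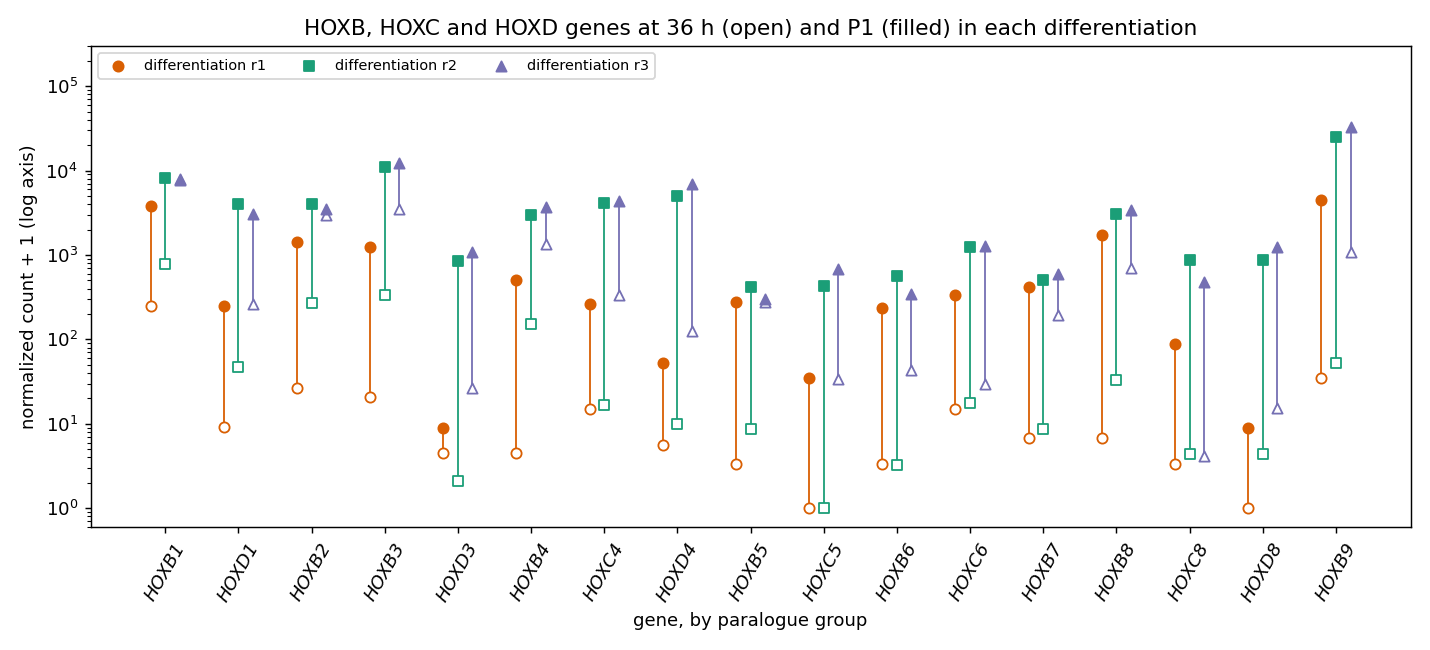
Normalized counts plus 1, on a log axis, of the 17 tested HOXB, HOXC and HOXD genes of groups 1 to 9, with 36 h open, P1 filled and a line joining the libraries of each differentiation. *HOXB1* is the sole gene drawn that is lower at P1 in r3, with 7784 counts against 7986 at 36 h.

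WNT targets, read here because CHIR-99021 was present at both times, included genes in both directions. All 16 were tested, DESeq2 called 2 higher and 2 lower, edgeR without r1 called 3 higher and 2 lower, and the median log2 fold change was 0.39. *LEF1*, a transcription factor of the pathway and its target, had 2327, 4108 and 9045 counts at 36 h and 5722, 25386 and 34434 at P1, higher in each differentiation, with a log2 fold change of 1.98 ± 0.29 (standard error, edgeR adjusted p = 0.20, from 3.2e-08 to 0.45 over 11 alternatives). The feedback gene *AXIN2* had 4632, 7748 and 5160 counts at 36 h and 10467, 8417 and 12098 at P1, above the 36 h range in every library. *DKK4*, a secreted inhibitor, had 49, 414 and 398 counts at 36 h and 21.8, 1.19 and 1.51 at P1, lower in each differentiation. Of 20 genes of FGF signalling, all tested, DESeq2 called 3 higher and 2 lower, and edgeR without r1 called 1 higher and 1 lower. The median was -0.11, and the 3 differentiations had 0.48, -0.46 and -0.52. Its feedback targets *DUSP6* and *SPRY4* parted. *DUSP6* had 3572, 8310 and 5267 counts at 36 h and 13582, 13665 and 7440 at P1, higher in each differentiation, and *SPRY4* 5006, 12352 and 7016 at 36 h and 17398, 3456 and 1952 at P1, higher in r1 alone. The ligand *FGF4* had 382, 1820 and 793 counts at 36 h and 19.8, 747 and 119 at P1, and *FGF9* 23.3, 18.9 and 109 at 36 h and 55.5, 2176 and 1679 at P1.

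For retinoic acid, 12 of 15 genes were tested, DESeq2 called 1 higher and 2 lower, and edgeR without r1 called 0 higher and 2 lower. The median log2 fold change was 0.22, with medians of -0.17, 0.54 and 0.16 in r1, r2 and r3. *CYP26A1*, the enzyme that degrades retinoic acid and its usual target gene, had 24.5, 171 and 15.1 counts at 36 h and 9.91, 146 and 42.4 at P1, with overlap. *CRABP1*, a binding protein, had 2115, 1202 and 863 counts at 36 h and 874, 81.9 and 127 at P1, lower in each differentiation. For BMP signalling all 18 genes were tested, and the balance of calls differed between fits, with 2 higher and 0 lower by DESeq2 and 1 higher and 4 lower by edgeR without r1. The median was 0.12, with 0.64, 0.72 and -1.18 in r1, r2 and r3, so that r3 went the other way. *GREM1* (chr15:32717974-32745107), a secreted BMP antagonist, had 70, 68.9 and 108 counts at 36 h and 1050, 3386 and 1800 at P1. All P1 libraries lay well above all 36 h libraries, with a log2 fold change of 4.54 ± 0.45 (standard error, edgeR adjusted p = 0.20, from 9.4e-25 to 0.36 over 11 alternatives). The target *ID1* had 624, 935 and 3482 counts at 36 h and 200, 1732 and 814 at P1, with overlap.

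Genes not named above, with the largest DESeq2 log2 fold changes among its calls that went at least 2-fold the same way in each differentiation, were of varied kinds. There were 94 such genes higher and 338 lower at a mean of at least 100 counts, or 91 and 338 with more than 3 counts in at least 1 library of each pair. *CPA1*, a carboxypeptidase, had 0, 0 and 15.1 counts at 36 h and 1.98, 586 and 1101 at P1, and since its P1 r1 value is 1 read against 0, r1 shows no difference for it. Its difference lay in r2 and r3. The zinc finger gene *ZNF831* had 0, 1.11 and 70 counts at 36 h and 11.9, 1059 and 1835 at P1. *AC009336.2*, annotated as protein coding on chromosome 2, had 7, 2.22 and 75.5 counts at 36 h and 27.7, 3530 and 4538 at P1. All 3 were low in P1 r1. Among the lower genes, *LNCPRESS2*, a long noncoding RNA, had 482, 219 and 19.9 counts at 36 h and 101, 0 and 0 at P1, *CRYBB1*, a crystallin, 193, 181 and 250 at 36 h and 17.8, 0 and 2.27 at P1, and the sense-intronic transcript *AL591742.2* 8329, 4490 and 1279 at 36 h and 1562, 38 and 3.03 at P1.

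Markers of other cell types were also read. Of 10 endoderm genes, 5 were tested, DESeq2 called 1 higher and 3 lower, edgeR without r1 called 0 higher and 1 lower, and summed TPM was 14, 27 and 151 at 36 h and 11.8, 438 and 580 at P1. In P1 r2 and P1 r3 nearly all of the sum was *CXCR4*, a chemokine receptor that mesoderm also expresses, at 4.62, 432 and 578 TPM, while *SOX17* and *APOA2* were at or under 3 counts in all 6 libraries. *FOXA2*, of endoderm and floor plate, had 407, 124 and 10.3 counts at 36 h and 49.5, 0 and 3.78 at P1, and *GATA4* 36.2, 368 and 738 at 36 h and 3.96, 101 and 36.3 at P1. The repressor *PRDM1* had 73.5, 84.4 and 15.9 counts at 36 h and 410, 248 and 110 at P1. The defining endoderm genes were thus low or absent at P1.

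Of 12 lateral plate, cardiac and endothelial genes, 4 were tested, and DESeq2 and edgeR without r1 each called 1 lower and 0 higher. The median log2 ratios within r1, r2 and r3 were -1.33, 4.53 and -1.66, so that the median log2 fold change of 0.78 had the sign of r2 alone. Summed TPM was 75, 63.6 and 39.6 at 36 h and 9.48, 9.58 and 4.37 at P1. The most abundant at 36 h was *KDR* (chr4:55078259-55125595), the VEGF receptor of early mesoderm and endothelium. It made up most of the 36 h sums, at 73.7, 62.5 and 32 TPM, and had 6.58, 1.83 and 0.37 TPM at P1, where *GATA2* was higher in r2, at 2.35, and *FOXF1* in r3, at 1.82. *KDR* had 8848, 8744 and 4426 counts at 36 h and 896, 204 and 36.3 at P1, below the 36 h range in every library, a log2 fold change of -5.15 ± 0.83 (standard error, edgeR adjusted p = 0.20, from 1.2e-15 to 0.56 over 11 alternatives). *HAND1*, of lateral and extraembryonic mesoderm, had 0, 2.22 and 60.4 counts at 36 h and 0, 86.7 and 31 at P1. *FOXF1*, of lateral plate mesoderm, had 2.33, 8.88 and 223 at 36 h and 0, 194 and 159 at P1, and *GATA2*, of blood and endothelium, 4.67, 2.22 and 181 at 36 h and 1.98, 152 and 34.1 at P1. All 3 were higher at P1 in r2 alone. The cardiac marker *ISL1* was at or under 3 counts in all 6 libraries. Of 10 amnion genes, 5 were tested and DESeq2 and edgeR without r1 each called 0, against 2 at least 2-fold lower in each differentiation. Their summed TPM was 9.82, 6.23 and 4.82 at 36 h and 9.71, 4.79 and 2.58 at P1, *TFAP2C* had 5.98, 0.85 and 1.19 TPM at P1, the most abundant except in r2, where *HAND1* had 2.05, and *CGA* was at or under 3 counts in all 6. Of 8 surface ectoderm genes, 2 were tested and DESeq2 called 0, the summed TPM was 6.24, 5.85 and 3.49 at 36 h and 14.1, 13.6 and 12.3 at P1, and *TP63* and *KRT14* were at or under 3 counts in all 6. Without r1, edgeR called 2 of these 8 genes higher. The most abundant at P1 were *GRHL3* in r1, at 9.48 TPM, *DSC3* in r2, at 6.27, and *KRT5* in r3, at 5.6. *KRT5*, a keratin of basal epidermis, had 0, 0 and 3.98 counts at 36 h and 0, 252 and 263 at P1. Of 10 neuron genes, 9 were tested, DESeq2 called 2 higher and 1 lower, edgeR without r1 called 1 higher and 0 lower, summed TPM was 294, 278 and 258 at 36 h and 598, 280 and 371 at P1, and *TUBB3* led at 305, 191 and 225 TPM. Of the 9 members tested, 3 were higher and 1 lower by any amount in each differentiation, against 2958 and 3924 of all 17426 genes tested. The lower one was *DCX*, of migrating neurons, at 1407, 394 and 479 counts at 36 h and 202, 34.4 and 192 at P1. *TUBB3* was higher at P1 than its 183, 172 and 137 TPM at 36 h, and *STMN2* went from 22.4, 25.5 and 74.1 TPM at 36 h to 77.8, 42.4 and 111 at P1.

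The cell cycle, stress and p53 lists had median log2 fold changes of 0.16 over 15 genes tested, 0.34 over 12 and -0.14 over 12. DESeq2 called 1, 1 and 0 members higher and 0 lower in each, as many as edgeR without r1. Within r1, r2 and r3 the medians were 0.19, -0.08 and 0.23 for the cell cycle list, 0.49, -0.12 and 0.37 for the stress list and 0.65, -0.62 and -0.34 for the p53 list. Summed TPM of the cell cycle list was 2148, 1931 and 1916 at 36 h and 2423, 2036 and 2016 at P1, led by *CCNB1* at 430, 420 and 449 TPM at P1. The stress list summed to 216, 268 and 186 TPM at 36 h and 340, 271 and 265 at P1, led by the chaperone *DNAJB1* at 143, 80.6 and 62.6. The p53 list summed to 700, 742 and 509 TPM at 36 h and 1058, 559 and 375 at P1, led by *BAX* at 421, 289 and 153, so that P1 r1 was the highest library for both. Of 13 hypoxia and glycolysis genes 12 were tested, DESeq2 called 1 higher and 1 lower, and edgeR without r1 called 1 higher and 2 lower. The median was -0.05, with 0.06, -0.37 and 0.16 in r1, r2 and r3. Their sum was 2119, 2728 and 1820 TPM at 36 h and 3669, 1894 and 1892 at P1, again highest in P1 r1. The glucose transporter *SLC2A3* led in P1 r1, with 1525, 381 and 209 TPM at P1, *PGK1* in P1 r2, at 623, and *LDHA* in P1 r3, at 743. *PDK1*, a kinase that inhibits pyruvate dehydrogenase, had 8066, 10827 and 9242 counts at 36 h and 1306, 1191 and 2223 at P1, below the 36 h range in every library, a log2 fold change of -2.59 ± 0.26 (standard error, edgeR adjusted p = 0.20, from 3.7e-16 to 0.36 over 11 alternatives). What part the depth of P1 r1 or these lists has in the distance of r1 was not tested.

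The neighbouring steps share libraries with this comparison and are given for their own values. From t0 to 36 h, edgeR blocked in the same way called 510 of 18261 genes higher (2.79%) and 975 lower (5.34%), 1485 in all, against 13 without r2. *TBXT* rose by 10.70 on the log2 scale (edgeR adjusted p = 0.0073) and *CDH1* fell by 2.44 (edgeR adjusted p = 0.015), whereas *POU5F1* had a log2 fold change of -0.75 (edgeR adjusted p = 0.11). P2 had 840, 10.5 and 12.3 counts of *POU5F1*. On the log2 scale, the larger fall lay between 36 h and P1 in r3 and between P1 and P2 in r1. In r2 the falls before and after P1 were about equal. From P1 to P2, edgeR with the block called 0 of 17519 genes, with 2009 at an unadjusted p under 0.05 and no run of another tool. Without r1 it called 1714.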

How the data were processed

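RNA was sequenced by the authors from poly(A) libraries, 75 bases single end. Per the submitters' processing notes, reads were trimmed with cutadapt 1.16, aligned to GRCh38 with STAR 2.5.2b and quantified with RSEM 1.3.0, and the authors deposited expected counts and TPM per gene. The annotation release and strand setting are not given in the sources used here. Expected counts were rounded to whole numbers. Coordinates are from GENCODE 29, which matched 57447 of 58051 genes.

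Genes passing filterByExpr were tested in R 4.3.3 with edgeR 4.0.16 (TMM, quasi-likelihood, Benjamini-Hochberg), blocked on differentiation. DESeq2 1.42.0, limma 3.58.1 and other settings were alternatives. Log2 ratios within a differentiation used normalized counts plus 1. The standard errors printed with edgeR log2 fold changes were derived from the test and not estimated apart. Each is the absolute log2 fold change divided by the square root of the quasi-likelihood F statistic. Steps were tested on simulated data. The pairing rests on the shared replicate labels and on the series' design, described as covering all time points in each experiment. The series holds no P9 library of r3, however. No source used here states that a number marks the same experiment at each time. A check did not settle it: deviations from group means correlated across genes at 0.26, -0.11 and 0.40 for libraries of the same number (r1, r2, r3), and from -0.54 to 0.49 for others. The 3 samples of a group are separate differentiations, and no libraries of a group agreed within sampling noise.

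Genes were named if they led a list, were among the 10 with the largest change in a direction, or were among up to 4 further members of a list that were called. Since the planned test called none, the last 2 rules used, after the data were seen, genes called by DESeq2 and at least 2-fold changed the same way in each differentiation. Genes named as a list's most abundant or absent markers, and the further examples *CLDN6*, *EVX1*, *MESP2*, *CER1*, *NCAM1*, *NKX6-1*, *HAND1*, *KRT5*, *LIN28B*, *SALL4*, *LEFTY1*, *VIM*, *DLL1*, *HES7*, *LFNG*, *ALDH1A2*, *RIPPLY1*, *STMN2* and *FGFR2*, were chosen after their values were seen. Members and lists were chosen with earlier results of these data known. Low counts have the widest relative error, most of all in P1 r1, the shallowest library, and bounds from the floor of 3 counts cover counting error only.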

Additional observations from a re-analysis of the deposited data

How the results depend on the processing

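The planned test of P1 against 36 h called 0 genes, and so did the fit with no replicate block (paired samples ignored), DESeq2 size factors in edgeR, a minimum of 10 counts, thinning and limma-voom. DESeq2 with the block called 1145 (328 higher, 817 lower), no filter on low counts 30 (15 and 15), and all 35 whole cultures in the fit 1094 (413 and 681). Without 1 replicate number, edgeR called from 0 to 1026 genes, from 0 to 424 higher and from 0 to 602 lower, the highest without r1. The count of genes at least 2-fold changed in each differentiation, 157 higher and 670 lower, was chosen after seeing the data and has no test, as was the count of 154 and 667 with 1 library of each pair above 3 counts. Of list members 0 were called, against 92 by DESeq2, 9 with no filter, 55 with all 35 libraries, and from 0 to 69 without 1 replicate number. For 36 h against t0 the 1485 calls were 1979 with no replicate block and, without 1 replicate number, from 13 (r2 left out) to 1542 (r1 left out), and for P2 against P1 the 0 calls from 0 to 1714, without r1. The cause of these differences was not tested.

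Of 936 values of 89 named genes, 758 kept direction and side of the threshold, 157 also passed it and 21, in 12 genes, turned direction. With no replicate block, log2 fold changes turned to 1.07 for *NKX1-2*, 0.50 for *FGF8*, -0.04 for *CYP26A1* and 0.18 for *SOX3*. With all 35 libraries they were -0.29 for *CDX2* and 0.72 for *FGF8*, with limma-voom 0.34 for *FGF8*, with DESeq2 0.36 for *MSGN1*, and with thinned libraries -0.14 for *CYP26A1*. Leaving out each replicate number gave ranges of -0.08 to 0.26 for *SP5*, -0.95 to 2.00 for *CDX2*, -1.23 to 1.10 for *FGF8*, -2.76 to 0.45 for *WNT3A*, -0.65 to 0.56 for *CYP26A1*, -0.34 to 1.24 for *TBX6*, -0.90 to 1.44 for *MSGN1*, -0.20 to 1.00 for *DLL3*, -0.49 to 0.16 for *CDH2* and -1.83 to 0.01 for *SPRY4*. The fold change itself, not its log2, moved by over 1.5-fold in 67 of the 89 genes under at least 1 alternative. It did so in 31 with no replicate block, and in 45, 51 and 43 without r1, r2 and r3. Among genes printed with a standard error, the alternatives ran from -6.38 to -1.76 for *POU5F1*, -9.00 to -2.34 for *NANOG*, -2.20 to -1.42 for *USP44*, -8.44 to -4.46 for *TDGF1*, -7.69 to -5.64 for *CDH1*, -6.77 to -5.55 for *ESRP1*, -4.42 to -1.69 for *TBXT*, -4.20 to -2.46 for *MIXL1*, 1.82 to 2.73 for *EGFLAM*, 6.31 to 7.32 for *FOXC2*, 3.39 to 6.09 for *MEOX1*, 1.85 to 4.05 for *POU3F2*, 5.75 to 8.02 for *HOXB9*, 1.64 to 2.29 for *LEF1*, 4.01 to 4.82 for *GREM1*, -6.09 to -4.25 for *KDR* and -2.89 to -2.31 for *PDK1*. The cause was not tested.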
